A study of Mus musculus with 6 samples.

Results

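The 8 genes described here supply or use the phosphocreatine energy store of the heart or, in the case of Ak1, transfer phosphate beside it. These are the creatine kinases Ckm, Ckb, Ckmt1 and Ckmt2, the creatine transporter Slc6a8, the synthesis enzymes Gatm and Gamt, and the adenylate kinase Ak1. They were chosen by symbol from the 35976 genes of the deposited count table, and all 8 were found in it. RNA was measured by RNA-seq in heart tissue of wild-type mice. The 3 edited hearts had received AAV-MYL2-TadA8e-Sauri-U6-Camk2d sgRNA7, an adeno-associated virus with an adenine base editor and a guide RNA aimed at the donor splice site of intron 7 of Camk2d, which encodes the delta form of calcium/calmodulin-dependent protein kinase II, while the 3 control hearts, also wild type, were untreated. Myl2 is a gene of ventricular heart muscle, and a promoter of that name is mainly active there, whereas the RNA came from all cells of the tissue. Virus, editor and edit were absent together from the controls and cannot be told apart, and the labels state neither age nor sex, dose, interval or chamber, nor whether each library is a separate animal, so that each p-value measures a spread between samples that may be technical.

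Creatine kinases move a phosphate group between ATP and creatine. The sarcomeric mitochondrial isoform, Ckmt2, works at the inner mitochondrial membrane, where newly made ATP is used to charge creatine. The cytosolic muscle isoform, Ckm, does the reverse at sites of ATP use such as the myofibril and the calcium pump, and the brain isoform, Ckb, is the cytosolic form of brain, smooth muscle and the fetal heart. Adult heart muscle makes little creatine and takes it up from blood through Slc6a8.

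The libraries held 17265842 to 23097998 counts in edited hearts and 17062412 to 19743748 in controls. The targeted gene went with the labels: Camk2d was at 144 ± 17.7 CPM in edited hearts and 223 ± 3.46 CPM in controls (SD, n = 3 each), with no overlap. CPM are a library's counts scaled to a common total after TMM scaling, which corrects for differences in makeup between libraries. The libraries differed in RNA of atrial markers: 6 of them summed to 1883, 1272 and 2824 CPM in edited hearts 1, 2 and 3, against 61.9, 1992 and 43.8 CPM in controls 1, 2 and 3. Whether the amount of atrial tissue differed was not tested. Controls 1 and 3 thus stand apart in this sum. The changes of single genes are given also with control 2 as the only control and with the atrial gene Myl7 as a covariate. Control 2 is not matched to the edited hearts in every atrial marker: Bmp10 was at 102 CPM in control 2, against 0, 0 and 0.112 CPM in edited hearts. Myl7 was higher in every edited heart (542, 371 and 914 CPM) than in every control (6.88, 332 and 0.209 CPM). As a covariate it is therefore partly confounded with group. With control 2 as the only control, 82 genes were called in all, and Camk2d was not among them (adjusted p = 0.0964 by edgeR).

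The kinase genes did not move together. Ckmt2 and Ak1 RNA were lower in edited hearts, Ckb RNA was higher, and Ckm did not pass the test. Of the 8 genes, 7 had enough counts to be tested, and 3 were called at an adjusted p under 0.05 by the quasi-likelihood test of edgeR, 1 higher and 2 lower. Of all 14879 tested genes, 9.66% passed that threshold, with 733 genes (4.93%) higher and 705 (4.74%) lower; with upper-quartile scaling 849 were higher and 531 lower. The groups did not overlap for 4 of the 7 tested genes (Ckmt2, Ckb, Ak1 and Slc6a8), against 29.3% of all tested genes. The median log2 change of the 7 was -0.037, and that of all tested genes was 0.0013. Changes are given as log2 of edited over control with a standard error (SE).

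Sequence upstream of the RefSeq start is shown for the 3 abundant kinase genes, of which Ckmt2 was lower, Ckb was higher and Ckm did not pass the test. The windows are on GRCm38.p6, the build of the count table (mm10), run 5′ to 3′ on the gene's strand, end before the gene's first exon base in the deposited table or GENCODE M21 (which for Ckmt2 and Ckm lies upstream of the RefSeq start), and have motif matches in capitals.
Ckmt2, chr13:91876924-91877135, minus strand: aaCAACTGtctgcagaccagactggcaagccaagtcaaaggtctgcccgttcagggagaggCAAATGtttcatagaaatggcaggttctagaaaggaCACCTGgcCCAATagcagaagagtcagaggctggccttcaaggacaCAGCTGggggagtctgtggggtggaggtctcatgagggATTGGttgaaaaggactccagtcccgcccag
Ckb, chr12:111672339-111672588, minus strand: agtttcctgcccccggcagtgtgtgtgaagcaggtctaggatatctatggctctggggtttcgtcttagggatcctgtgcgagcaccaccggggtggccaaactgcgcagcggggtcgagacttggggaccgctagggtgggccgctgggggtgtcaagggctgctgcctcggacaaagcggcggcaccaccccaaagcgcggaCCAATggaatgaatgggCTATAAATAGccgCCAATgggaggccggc
Ckm, chr7:19410844-19411024, plus strand: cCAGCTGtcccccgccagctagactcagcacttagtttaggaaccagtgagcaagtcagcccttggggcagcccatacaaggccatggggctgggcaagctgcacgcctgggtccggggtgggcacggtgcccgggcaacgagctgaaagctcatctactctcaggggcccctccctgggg
The motifs searched on both strands were the E-box CANNTG, a site of muscle and other basic helix-loop-helix factors; the TATA box TATAAA; the CCAAT box CCAAT; the estrogen-related receptor half-site AAGGTCA; and the MEF2 motif. In the 250 bases before each start, Ckmt2 had 4 E-boxes and 2 CCAAT boxes. Ckb had 2 CCAAT boxes, 1 TATA box and 1 MEF2 match, and the TATA box lies inside the MEF2 match. Ckm had 1 E-box. Among 32851 mouse promoter windows of that length in RefSeq, 66.2% held the E-box, 33.9% the CCAAT box, 12.4% the TATA box, 4.08% the receptor half-site and 2.92% the MEF2 motif. A match is only a description of these letters. Windows were matched by symbol for 7 of the 8 genes, all but Slc6a8.

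**Figure D1:**
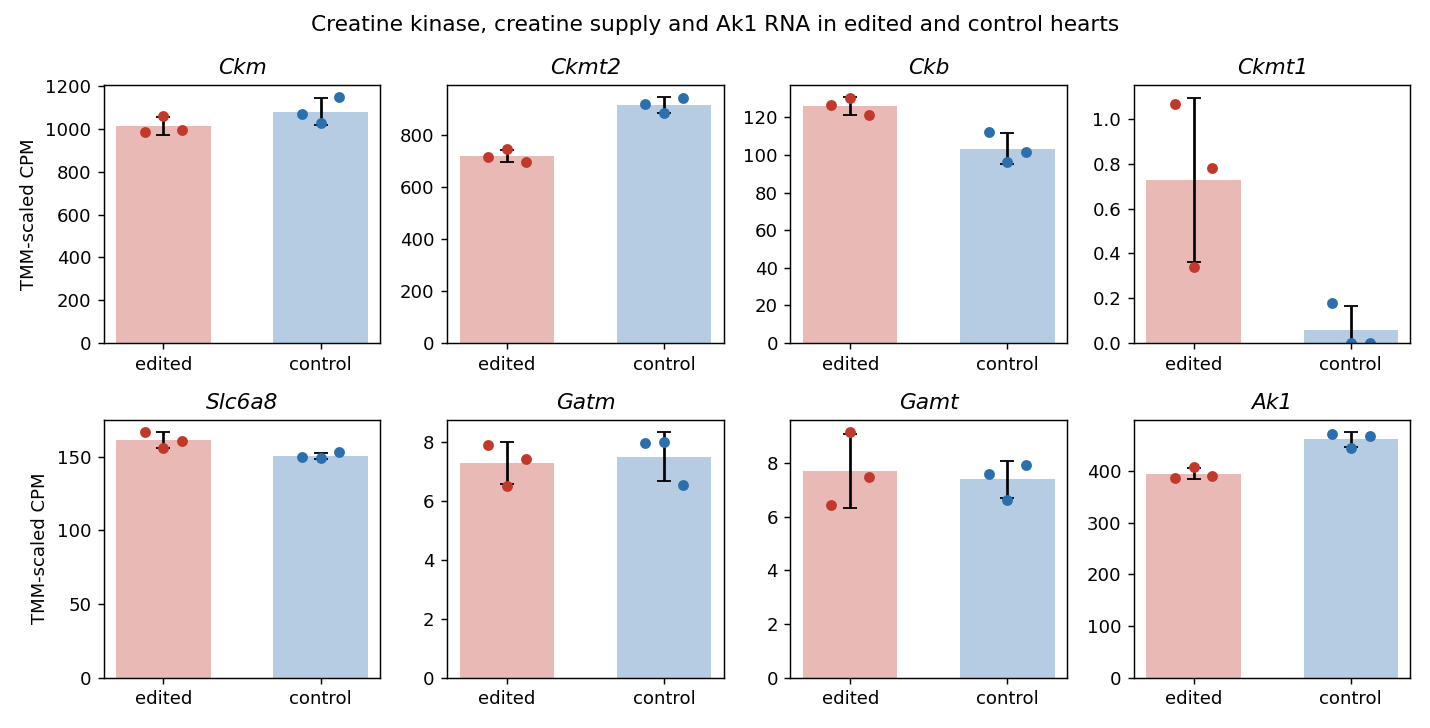
RNA level of each of the 8 genes in TMM-scaled CPM; points are the 3 libraries of a group, bars their mean and whiskers the SD. All edited hearts lie below all controls for Ckmt2 and Ak1 and above them for Ckb, Slc6a8 and Ckmt1, while Ckm, Gatm and Gamt overlap.

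Ckmt2 (chr13:91853387-91876923, minus strand, 10 exon blocks) had the largest log2 change of the 7 tested genes. Its level was 715, 746 and 698 CPM in edited hearts 1, 2 and 3, against 922, 884 and 943 CPM in controls 1, 2 and 3. The highest edited heart was below the lowest control. The means were 719.7 ± 24.2 CPM in edited hearts and 916 ± 30.0 CPM in controls (SD, n = 3 each), a log2 change of -0.35 (SE 0.05; edgeR quasi-likelihood adjusted p = 0.00109). Edited hearts thus held 78.5% of the control RNA, and 2 SE each way spanned 73.2% to 84.2%. The call was kept with each single library left out. With control 2 as the only control it was not (log2 -0.30, adjusted p = 0.148 by edgeR), nor with the atrial gene Myl7 as a covariate (log2 -0.28, adjusted p = 0.0844 by edgeR). The 8 cardiomyocyte markers, none of them at 0, moved the same way: they summed to 63651 to 67843 CPM in edited hearts and 76023 to 78855 CPM in controls, and 5 of the 8 were lower by edgeR's test. In such bulk samples fewer cells of a type and less RNA per cell cannot be told apart, and the part of cell makeup in the lower Ckmt2 level was not tested. Scaled to that marker sum, which raises every log2 difference by 0.24 and was added after the data were seen, the log2 difference of Ckmt2 was -0.11.

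Ckm (chr7:19411094-19421583, plus strand, 8 exon blocks), the most abundant kinase RNA, was at 988, 1062 and 994 CPM in edited hearts, against 1069, 1027 and 1149 CPM in controls. The groups overlapped: edited 2 was above control 2. The means were 1015 ± 41.3 CPM in edited hearts and 1082 ± 62.0 CPM in controls (SD, n = 3 each). The log2 change was -0.09 (SE 0.05), and 2 SE each way spanned -0.20 to 0.02 (edgeR quasi-likelihood adjusted p = 0.330). The estimate for Ckmt2 lies outside that range. The log2 change of Ckm was -0.02 (SE 0.08) with control 2 as the only control and 0.01 (SE 0.07) with Myl7 as a covariate. In the deposited annotation 31.9% of the exon bases of Ckm, 451 of 1415, are shared with A930016O22Rik on the opposite strand. A930016O22Rik held 206, 124 and 121 counts in edited hearts and 129, 114 and 156 counts in controls. Neither the use of strand nor the handling of reads over both genes is stated, so it is not known whether reads from the shared bases were counted for Ckm.

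Ckb (chr12:111669355-111672338, minus strand, 8 exon blocks) went the other way from Ckmt2. Its level was 126, 130.45 and 121 CPM in edited hearts, against 112, 96.1 and 102 CPM in controls. Every edited heart was above every control. Means were 126 ± 4.74 CPM in edited hearts and 103 ± 8.12 CPM in controls (SD, n = 3 each), a log2 change of 0.29 (SE 0.06; edgeR quasi-likelihood adjusted p = 0.0110). This is 122% of the control RNA, and 2 SE each way spanned 112% to 133%. The call was lost in edgeR without control 2 (log2 0.23, adjusted p = 0.0501) and without control 3 (log2 0.27, adjusted p = 0.0928), with control 2 as the only control (log2 0.39, adjusted p = 0.105) and with Myl7 as a covariate (log2 0.36, adjusted p = 0.0974). The processed copy Gm12892 matches Ckb over 1149 bases at 96.8% identity, and Ckb-ps1 and Ckb-ps2 match it over 373 and 191 bases; these copies are not rows of the count table, and how reads that fit several places were treated is not stated, so the level of Ckb is uncertain to that extent.

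Ckmt1 (chr2:121357751-121363737, plus strand, 11 exon blocks), the mitochondrial isoform of brain, gut and other epithelia, was at or near the detection limit in control hearts. It had 25, 6 and 14 counts in edited hearts, against 3 counts in control 1 and 0 in controls 2 and 3, where a count of 0 allows up to 0.158 and 0.157 CPM. Edited hearts held 1.07, 0.339 and 0.782 CPM, against 0.179 CPM in control 1. All edited libraries were above all controls, but the gene did not reach the count filter and has no value in the test of all 6 libraries. Summed over the groups, 45 counts in edited hearts and 3 in controls gave a rate ratio of 13.9, with an exact 95% interval of 4.47 to 70.1 that covers counting error only. With no filter on low counts the adjusted p by edgeR's quasi-likelihood test was 6.87e-06, a value that rests on counts in the edited libraries. The gene was also tested in 5 settings that leave out libraries, where its log2 change ran from 3.05 to 6.87. It passed the count filter there only through its counts in edited libraries, so these values are no separate support for a difference. It was not past the threshold in edgeR without control 2 (adjusted p = 0.0507) or without control 3 (0.0979). Of its exon bases 3.26% are shared with Strc and Gm33947 on the opposite strand.

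Markers of neurons and Schwann cells, which can express Ckb and Ckmt1, were scarce and uneven. The summed level of the 8 markers was 26.7, 19.3 and 43.1 CPM in edited hearts, against 20.3, 22.4 and 21.1 CPM in controls, and of the 4 tested the 1 call was a fall, that of Dbh. The neuronal gene Snap25, singled out after its values were seen, was at 4.95, 0.226 and 4.41 CPM in edited hearts 1, 2 and 3, against 0.120, 0.158 and 0 CPM in controls 1, 2 and 3. Edited hearts 1 and 3, which were high in Snap25, also held the most Ckmt1, whereas Ckb was highest in edited 2. The summed level of 6 smooth muscle and pericyte markers was 1580, 2007 and 1238 CPM in edited hearts, against 1535, 1620 and 1494 CPM in controls. Of 6 mesothelial markers 4 rose and 1 fell, with sums of 42.3, 50.5 and 29.4 CPM in edited hearts, against 27.3, 26.9 and 27.3 CPM in controls. No marker of these 3 lists was at 0 in all libraries, and their part in the values of Ckb and Ckmt1 was not tested.

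In the makeup of creatine kinase RNA, the groups did not overlap in the share of any isoform, with Ckmt1 at 0 counts in controls 2 and 3. Counts per kb of exon length were summed over the 4 kinase genes in each library. Ckmt2 made up 37.4%, 36.8% and 36.8% of the sum in edited hearts, against 42.1%, 42.3% and 41.3% in controls. Its mean share was 37.0 ± 0.34% in edited hearts and 41.9 ± 0.56% in controls (SD, n = 3 each), a difference of -4.85 percentage points. Ckb made up 6.83%, 6.64% and 6.59% in edited hearts, against 5.28%, 4.74% and 4.59% in controls. Its mean share was 6.69 ± 0.13% in edited hearts and 4.87 ± 0.36% in controls (SD, n = 3 each). Ckm made up 56.2 ± 0.48% in edited hearts and 53.2 ± 0.81% in controls (SD, n = 3 each). The share of Ckm was thus above all controls in every edited heart, while its CPM overlapped. The shares of a library sum to a fixed total, so a lower share of Ckmt2 by itself raises the others.

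**Figure D2:**
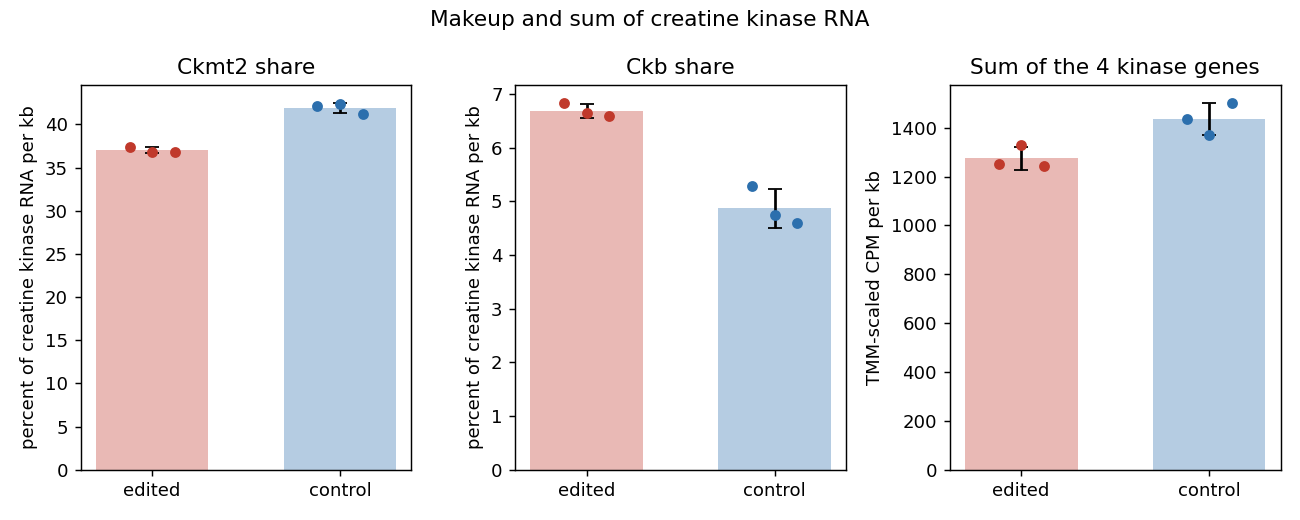
Share of Ckmt2 and of Ckb in the summed creatine kinase RNA (percent of CPM per kb) and that sum itself (TMM-scaled CPM per kb); points are the 3 libraries of a group, bars their mean and whiskers the SD. Ckmt2 shares are 36.8% to 37.4% in edited hearts and 41.3% to 42.3% in controls, with no overlap in any of the 3 panels.

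Per kb, Ckm RNA was 1.52 ± 0.027 times Ckmt2 RNA in edited hearts and 1.27 ± 0.036 times in controls (SD, n = 3 each). Ckm was 8.42 ± 0.23 times Ckb in edited hearts and 10.97 ± 0.93 times in controls (SD, n = 3 each). The summed level of the 4 kinases was 1253, 1329 and 1243 CPM per kb in edited hearts, against 1436, 1371 and 1499.9 CPM per kb in controls, a mean log2 difference of -0.17. The fits with Myl7 and with control 2 alone were not run for these shares, ratios and sums; the values of control 2 are those printed second among the controls. For each of these quantities the groups did not overlap, and the two-sided exact permutation test over the 20 arrangements of 6 libraries gave p = 0.1, the smallest that 3 against 3 allows. The family held 11 such quantities, which share their counts, and the Benjamini-Hochberg adjusted p was 0.1 for each by the same exact test. With the bases that Ckm and Ckmt1 share with other genes left out of their lengths, a choice made after the overlap was seen, Ckmt2 made up 29.3 ± 0.32% in edited hearts and 33.5 ± 0.54% in controls, and Ckb 5.29 ± 0.11% and 3.90 ± 0.30% in the same order (SD, n = 3 each). The cardiomyocyte marker sum was also lower in edited hearts, at 85.0% of control, and scaling to it raises every log2 difference by 0.24. The part of cell makeup in the lower kinase sum was not tested.

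None of the 3 genes of creatine supply passed the test. Slc6a8 (chrX:73673133-73682502, plus strand, 13 exon blocks) was at 167, 156 and 161 CPM in edited hearts, against 149.6, 149 and 153 CPM in controls. Every edited heart was above every control, by a small margin. The means were 161 ± 5.42 CPM in edited hearts and 151 ± 2.10 CPM in controls (SD, n = 3 each), and the log2 change of 0.10 (SE 0.05) did not pass the threshold (adjusted p = 0.246 in edgeR's quasi-likelihood test). The estimate is 107% of control, and 2 SE each way spanned 99.9% to 115%. The log2 change was 0.11 (SE 0.08) with control 2 as the only control and 0.12 (SE 0.08) with Myl7 as a covariate.

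Gatm, which makes guanidinoacetate from arginine and glycine, and Gamt, which methylates it to creatine, were both scarce. Gatm (chr2:122594473-122611277, minus strand) was at 7.89, 6.50 and 7.43 CPM in edited hearts, against 7.95, 8.01 and 6.53 CPM in controls. Gamt (chr10:80258151-80261026, minus strand) was at 6.44, 9.16 and 7.48 CPM in edited hearts, against 7.60, 6.64 and 7.94 CPM in controls. The groups overlapped for both. Neither passed edgeR's quasi-likelihood test, with log2 changes of -0.04 (SE 0.13, adjusted p = 0.898) for Gatm and 0.05 (SE 0.14, adjusted p = 0.872) for Gamt. At 115 to 185 counts of Gatm and 126 to 162 counts of Gamt per library, the ranges at 2 SE each way ran from 81.7% to 116% of control for Gatm and from 85.3% to 126% for Gamt, so smaller differences were not detectable at this depth. With control 2 as the only control the log2 changes were -0.14 (SE 0.18) for Gatm and 0.20 (SE 0.22) for Gamt, and with Myl7 as a covariate they were -0.21 (SE 0.18) and 0.24 (SE 0.20).

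Ak1 (chr2:32621758-32635058, plus strand, 7 exon blocks), which turns 2 ADP into ATP and AMP and so runs beside creatine kinase in phosphate transfer, was lower. Its level was 386, 408 and 389.9 CPM in edited hearts, against 470.5, 444 and 467 CPM in controls. All edited hearts were below all controls. The means were 395 ± 11.3 CPM in edited hearts and 461 ± 14.6 CPM in controls (SD, n = 3 each), a log2 change of -0.22 (SE 0.05; edgeR quasi-likelihood adjusted p = 0.0158), which leaves 85.7% of the control RNA. The call was lost in 6 of 16 alternatives, among them edgeR without edited 3 (adjusted p = 0.0703), control 1 (0.0821) or control 3 (0.110), with control 2 as the only control (log2 -0.17, adjusted p = 0.444) and with Myl7 as a covariate (log2 -0.17, adjusted p = 0.343). The cardiomyocyte marker sum was lower in the same 3 hearts, and scaled to that sum the log2 difference of Ak1 was 0.012 (two-sided exact permutation p = 0.8, n = 3 each). The part of cell makeup in the lower Ak1 level was not tested. Control 2 had the lowest control level of Ckmt2, Ak1 and Ckb alike.

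**Figure D3:**
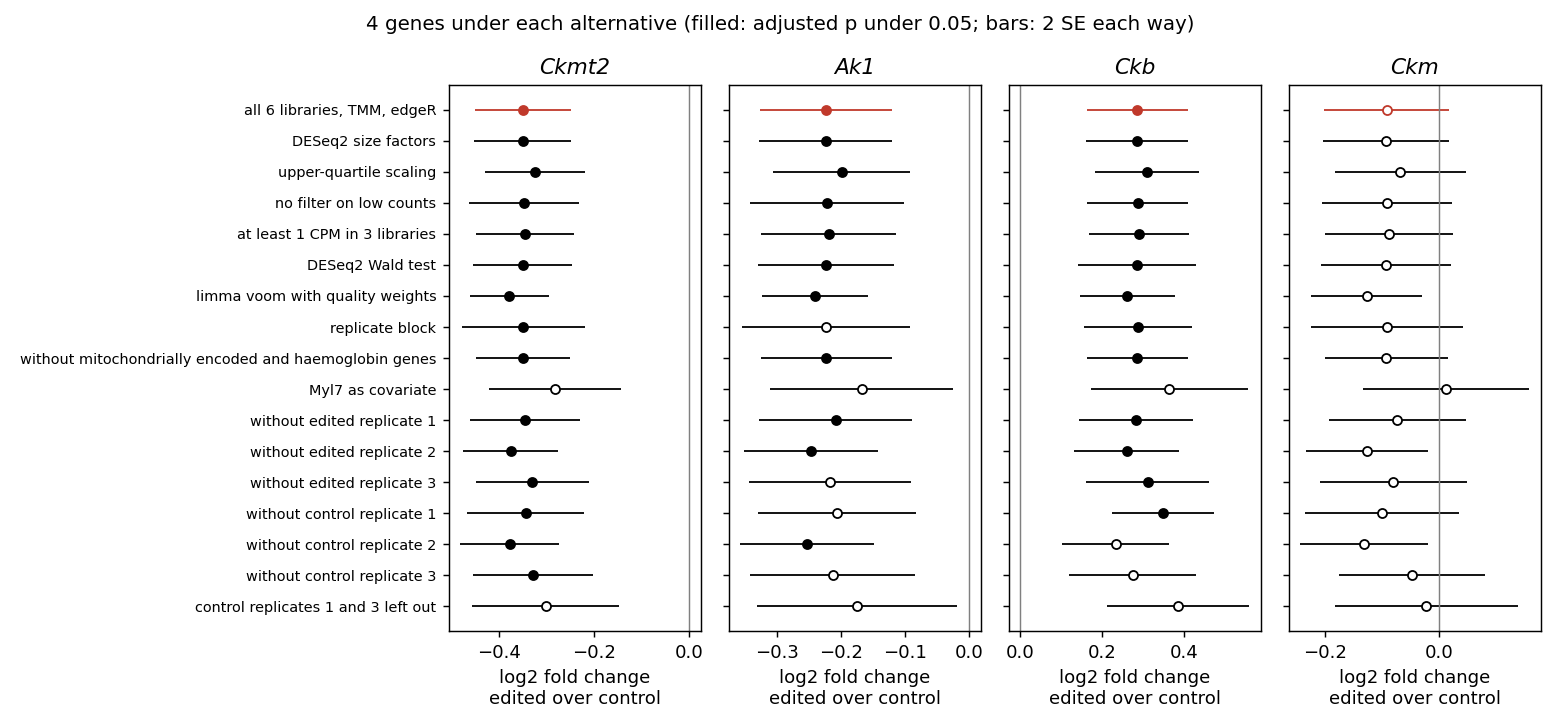
Log2 fold changes, edited over control, of Ckmt2, Ak1, Ckb and Ckm with all 6 libraries (red, top) and under 16 alternatives; bars are 2 SE each way and filled points have an adjusted p under 0.05. Estimates run from -0.38 to -0.28 for Ckmt2, -0.25 to -0.17 for Ak1 and 0.23 to 0.39 for Ckb, and the points of Ckm are all unfilled.

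Per kb of exon length, the 8 RNAs kept the same order in both groups. Ckm was first, at 717 ± 29.2 CPM per kb in edited hearts and 764.5 ± 43.8 in controls, and ranked 50th of the 35976 genes by the control mean. Ckmt2 was second, at 472 ± 15.9 CPM per kb in edited hearts and 601 ± 19.7 in controls. Ak1 followed at 99.1 ± 2.84 CPM per kb in edited hearts and 116 ± 3.66 in controls, then Ckb at 85.2 ± 3.21 in edited hearts and 69.9 ± 5.50 in controls (SD, n = 3 each). The gap between Ak1 and Ckb was thus narrower in edited hearts. Slc6a8 came next at 40.5 ± 1.36 CPM per kb in edited hearts and 37.8 ± 0.53 in controls, followed by Gamt at 7.02 ± 1.25 in edited hearts and 6.74 ± 0.61 in controls and Gatm at 3.09 ± 0.30 in edited hearts and 3.18 ± 0.36 in controls (SD, n = 3 each). Ckmt1 was last, at 0.425 ± 0.21 CPM per kb in edited hearts and 0.035 ± 0.060 in controls. Neighbours in this order did not overlap within either group.

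Among the 21 pairs of tested genes, the profiles of Ckmt2 and Ak1 over the 6 libraries were the closest, with a root mean square difference of 0.066 in centred log2(CPM + 0.5), and those of Ckb and Ckmt2 the farthest, at 0.322. Of 9299 other genes of at least 10 CPM, those most like Ckmt2 by this measure were Slc41a3, a magnesium transporter, Lrrc8c, an anion channel subunit, and Eef1a2, a translation elongation factor of muscle and neurons, at 0.009, 0.013 and 0.027. Those most like Ak1 were the aldose reductase Akr1b3, the cytosolic malate dehydrogenase Mdh1 and Map7d1, at 0.0093, 0.0094 and 0.018. Those most like Ckb were the citron kinase gene Cit, the replication helicase subunit Mcm5 and Lrrc75a, at 0.024, 0.036 and 0.043. For Ckm they were Bckdk, the kinase of branched-chain ketoacid dehydrogenase, Vav2 and Mrpl27, at 0.017, 0.020 and 0.021, and for Slc6a8 they included Ints4 and Arhgap35, at 0.014 and 0.020. These are descriptions over 6 libraries, in which a difference between the groups sets much of each profile.

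Genes of 5 lists that hand over, sense or anchor the same phosphate pool, or supply creatine synthesis, were counted beside the 9.66% called among all tested genes. Of 6 tested genes of mitochondrial nucleotide and phosphate exchange, 3 fell: Vdac1, a pore of the outer membrane (698 ± 14.7 CPM in edited hearts and 826 ± 12.7 in controls, log2 -0.24, SE 0.05), Slc25a3, the phosphate carrier (1353 ± 13.1 and 1514 ± 34.7 CPM in the same order, log2 -0.16, SE 0.05), and Slc25a4, the muscle form of the ADP/ATP carrier (3068 ± 75.0 and 3445 ± 183 CPM, log2 -0.17, SE 0.05; SD, n = 3 each). Their adjusted p values in edgeR's quasi-likelihood test were 0.0063, 0.0381 and 0.0490, and the list's median log2 change was -0.14. In the same order they were at 84.5%, 89.4% and 89.0% of control, where the cardiomyocyte marker sum was at 85.0%. The part of cell makeup in the falls within these 5 lists was not tested. Vdac1 lost its call without control 3 (adjusted p = 0.0569 by edgeR). Slc25a3 and Slc25a4 each lost theirs in edgeR without edited 1 (0.0712 and 0.0923), edited 3 (0.102 and 0.116), control 1 (0.159 and 0.217) or control 3 (0.201 and 0.256), and with upper-quartile scaling (0.0876 and 0.108). Slc25a4 was also past it neither with DESeq2's size factors (0.0502) nor with a filter of 1 CPM in 3 libraries (0.0581).

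Of 12 tested enzymes of adenine nucleotide and phosphoryl transfer, Ak4, a mitochondrial adenylate kinase, was the 1 call, at 12.4 ± 0.83 CPM in edited hearts and 16.9 ± 0.47 CPM in controls (SD, n = 3 each; log2 -0.45, SE 0.08, adjusted p = 0.0052 in edgeR's quasi-likelihood test). The list's median log2 change was -0.07. Of 7 subunits of AMP-activated protein kinase, a sensor of AMP, the regulatory subunit Prkag2 was the 1 call, at 112 ± 13.8 CPM in edited hearts and 82.9 ± 10.2 CPM in controls (SD, n = 3 each; log2 0.43, SE 0.11, adjusted p = 0.04997 by edgeR), beside a list median of -0.06. It stood at the threshold, and was not past it without edited 1 (adjusted p = 0.158 by edgeR), edited 3 (0.0739), control 1 (0.172) or control 3 (0.127), with Myl7 as a covariate (log2 0.19, adjusted p = 0.511), with a filter of 1 CPM in 3 libraries (0.0519) or without mitochondrially encoded and haemoglobin genes (0.0504).

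Of 8 M-line and titin partners of muscle creatine kinase, Fhl2, which in cell studies ties metabolic enzymes to titin, was the 1 call. It was at 1325 ± 43.5 CPM in edited hearts and 1769 ± 98.2 CPM in controls (SD, n = 3 each; log2 -0.42, SE 0.05, adjusted p = 4.76e-04 in edgeR's quasi-likelihood test). The other 7, which include the myomesins and titin, did not pass, and the list's median was -0.07.

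Of 11 tested genes of arginine and methyl donor supply, 2 fell and 1 rose, with a list median of 0.11. Slc7a1, a transporter of arginine, fell to 63.6 ± 6.34 CPM in edited hearts, against 86.3 ± 6.57 CPM in controls (log2 -0.44, SE 0.08), and Mat2a, which makes S-adenosylmethionine, fell to 242 ± 12.3 CPM, against 281 ± 8.39 CPM in controls (log2 -0.22, SE 0.06; SD, n = 3 each). Ass1, an enzyme of arginine synthesis, rose to 3.82 ± 1.12 CPM in edited hearts, against 2.08 ± 0.10 CPM in controls (SD, n = 3 each; log2 0.86, SE 0.22). The adjusted p values were 0.0044, 0.0244 and 0.0250 in edgeR's quasi-likelihood test. In edgeR, Mat2a was not past the threshold without edited 3 (0.0830), control 1 (0.0644) or control 3 (0.150), nor was Ass1 without edited 3 (0.127) or control 1, 2 or 3 (0.0906, 0.0708 and 0.101). With control 2 as the only control, or with Myl7 as a covariate, none of the 9 genes named from these 5 lists was past the threshold in edgeR.

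**Figure D4:**
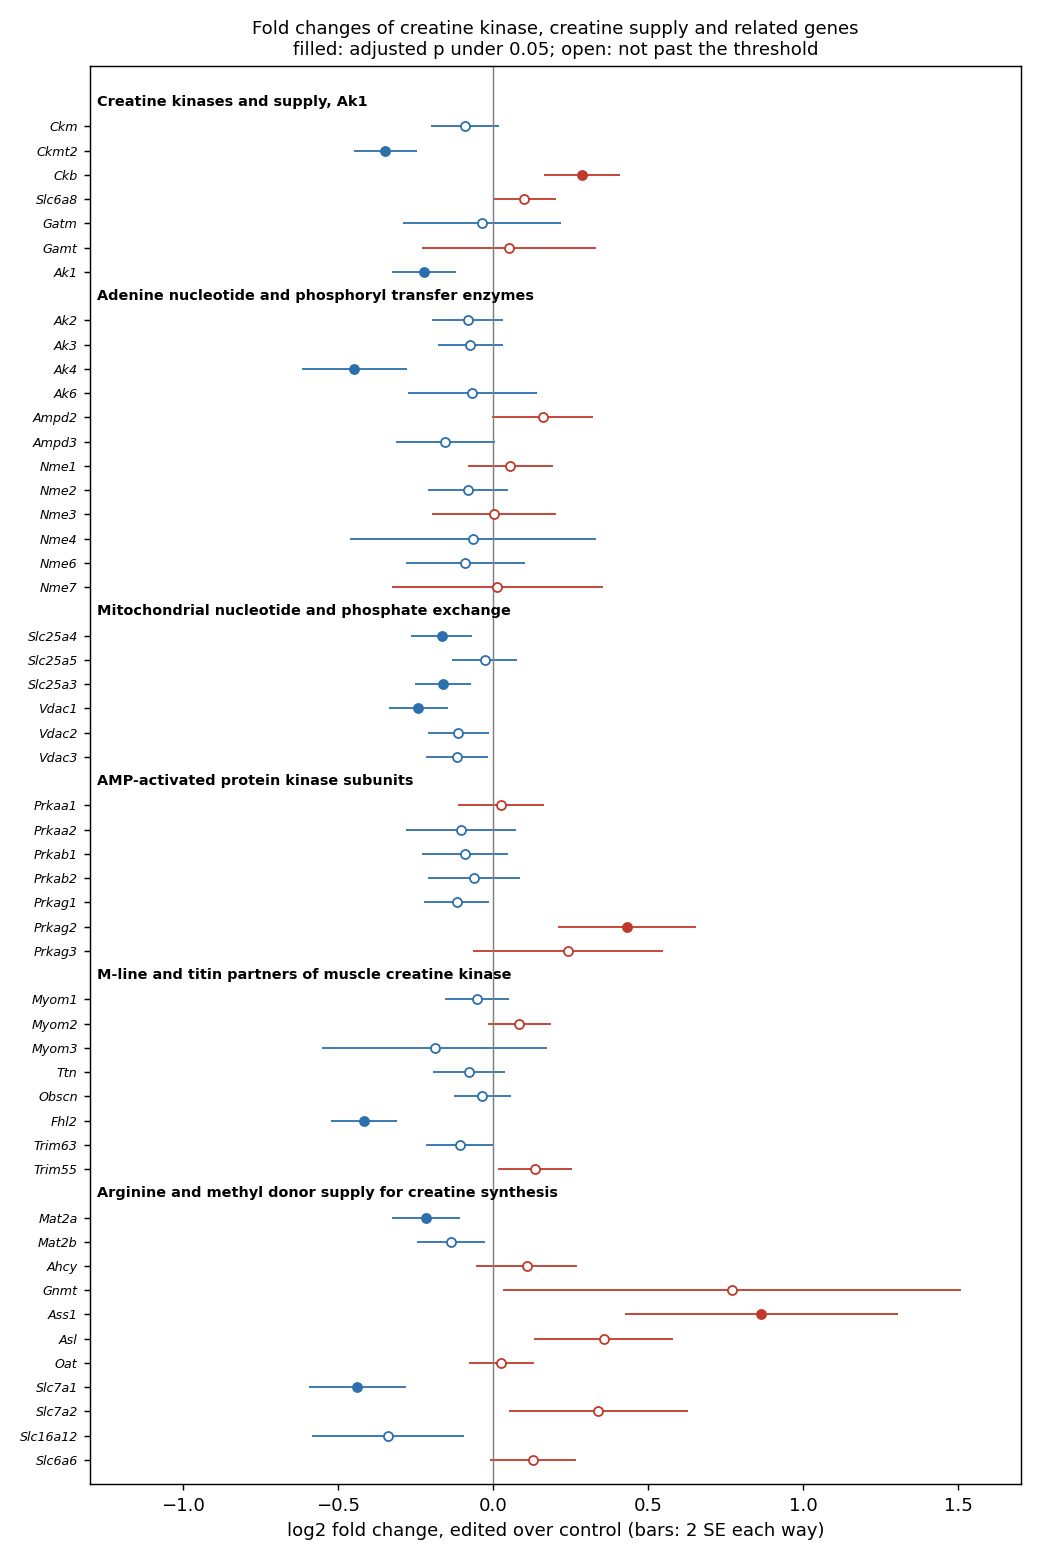
Log2 fold changes, edited over control, of the 7 tested genes and of the tested genes of 5 related lists; points are estimates, bars 2 SE each way, and filled points have an adjusted p under 0.05 in edgeR's quasi-likelihood test. Ckmt2 (-0.35) and Ak1 (-0.22) lie left of 0 and Ckb (0.29) right of it, while most points of the lists are open.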

How the data were processed

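The authors deposited raw read counts by gene in a single table, with each gene's exons and summed exon length. FastQC, cutadapt, STAR, featureCounts and the build mm10 are named in the submitters' processing notes; the versions, the strand setting and the treatment of reads that fit several places are not stated there. Each library has a column named for either read file of its pair. The columns of a library hold the same counts: 0 genes differed between them, and the first was used. No replicates were near copies: the chi-square per degree of freedom between libraries of a group was 3.95 to 14.4.

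Genes were kept by edgeR's filterByExpr and libraries scaled by TMM (factors 0.971 to 1.039). The test was edgeR's quasi-likelihood test (edgeR 4.0.16, robust; R 4.3.3) on group alone, with Benjamini-Hochberg adjustment over all tested genes, at 0.05. Shares and sums were compared by exact permutation. The steps were tested on simulated counts. The genes, lists, markers and alternatives were chosen with earlier results of these data known. Named genes are the 8 genes, Camk2d, up to 4 called genes per list and the 3 closest profiles of each of 5 genes, of which 1 is not reported here. Alternatives were DESeq2 1.42.0 (size factors and Wald test), upper-quartile scaling, other filters, limma 3.58.1 voom, a replicate block, Myl7 as a covariate, omission of mitochondrially encoded and haemoglobin genes, and omission of libraries. Motifs, exon overlap and similar transcripts (blastn, at least 90% identity over 100 bases) were read from RefSeq promoters and GENCODE M21, on the same build.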

Additional observations from a re-analysis of the deposited data

How the results depend on the processing

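Ckmt2 kept its direction under all 16 alternatives and its call under 14, Ckb under 16 and 12, and Ak1 under 16 and 10. With a single library left out, 7 or 8 of the genes were tested, with Ckmt1 only where its counts in edited libraries passed the filter. Of these genes 1 to 4 were called, and the low count was without control 3. With Myl7 as a covariate the count was 0 in edgeR, and 3 of the 7 tested genes were past an unadjusted p of 0.05. Of all 14879 tested genes, 1883 were past it in that fit. The calls were lost with control 2 as the only control too, where the log2 changes of Ckmt2, Ckb and Ak1 were -0.30, 0.39 and -0.17. The cause was not tested. The first of these settings called 126 genes in all and the second 82, where the fit of all libraries called 1438, and the second takes its spread from the edited hearts alone. The number of all genes called was 2239 with no filter on low counts, 2285 with limma voom, and 386 to 1661 with a single library left out, the lowest without control 3. Leaving out the exon bases shared with other genes, added after the data were seen, moved the difference in the share of Ckmt2 to -4.22 percentage points and that of Ckb to 1.39. Scaled to the cardiomyocyte marker sum, also added after the data were seen, every log2 difference is raised by 0.24, which gave 0.012 for Ak1 (exact permutation p = 0.8), 0.14 for Ckm and -0.11 for Ckmt2.

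No pairing by replicate number was seen: same-numbered deviations had correlations of 0.004, -0.113 and -0.081. These are deviations from means of only 3 libraries, so the values cannot exclude a pairing. With the replicate number as a block 1077 genes were called, and 2 of the genes described here, Ckmt2 and Ckb; adjusted p values past the threshold were lost in edgeR by Ak1 (0.0631), Slc25a4 (0.137), Slc25a3 (0.129), Prkag2 (0.126) and Mat2a (0.0670). Exact sign flips over the 3 pairs gave p = 0.25, the smallest they can give, for the shares of Ckmt2 and Ckb (-4.85 and 1.81 percentage points) and for the summed kinase level (log2 -0.17). With a single library left out these differences ran from -5.17 to -4.64, from 1.67 to 2.02 and from -0.20 to -0.14. Depth limits Ckmt1, Gatm and Gamt, which had at most 185 counts in a library.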

Other observations

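Against the summed CPM of the 8 cardiomyocyte markers, a scale chosen after these markers were seen to be lower, the values were as follows. The marker sum itself was 65663 ± 2101 CPM in edited hearts and 77269 ± 1446 CPM in controls (SD, n = 3 each), or 85.0% of the control level. Single markers ran from 74.3% of control for Pln to 90.2% for Actc1. Ak1 was 0.602 ± 0.028% of that sum in edited hearts and 0.596 ± 0.014% in controls (two-sided exact permutation p = 0.8, n = 3 each). Ckm was 1.55 ± 0.084% in edited hearts and 1.40 ± 0.054% in controls (exact permutation p = 0.2, n = 3 each), the direction opposite to that of its CPM. Ckmt2 was 1.10 ± 0.042% in edited hearts and 1.19 ± 0.020% in controls, lower in 3 of 3 edited hearts (exact permutation p = 0.1, n = 3 each, the smallest possible). Ckb was 0.192 ± 0.0066% in edited hearts and 0.134 ± 0.010% in controls, and Slc6a8 0.246 ± 0.0073% in edited hearts and 0.195 ± 0.0011% in controls, each higher in 3 of 3 edited hearts with the same exact permutation p of 0.1 (SD, n = 3 each). This scale adds the same 0.24 to every log2 difference, so a sign on it follows from the unscaled value and is no separate evidence.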
